A study of Mus musculus with 9 samples.

Results

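The 10 genes described here each span more than 700 kb and were measured in mouse kidney cortex: Fhit, Wwox, Immp2l, Macrod2, Cntnap5a, Ctnna2, Dpyd, Sugct, Nkain2 and Cntn5. They were chosen by their span and by their fall in expected counts in the cisplatin libraries against the control libraries, from 17963 genes measured, so their level after cisplatin against control is how they were found and is given here as a description without a test. RNA was sequenced from 9 libraries of kidney cortex of wild-type mice on day 4, with 3 libraries in each of 3 groups. The YSJZD group had cisplatin by injection into the peritoneum and Yishen Jiangzhuo decoction (YSJZD), a herbal medicine, by stomach tube. The cisplatin group had the same drug with pure water by stomach tube, and the control group had saline by injection with pure water by stomach tube. Both treated groups therefore carry cisplatin, a platinum drug against cancer that binds DNA and injures the kidney tubule. The labels do not say that each library came from its own mouse, so a p-value reflects the spread among the samples sequenced, which may be technical. Strain, age and dose are not stated in the labels.

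Common fragile sites are regions where chromosomes break when replication is slowed, and many lie within unusually long genes, of which human FHIT and WWOX are the best known. A very long gene is almost all intron, and an RNA polymerase must cross the whole span before a complete RNA is made. Platinum crosslinks in DNA are known to stop RNA polymerase, and the chance of meeting one grows with the length transcribed. Breakage and RNA synthesis were not measured in these libraries, which count RNA only, and "fragile-site" is the literature's name for genes of this kind rather than a finding here.

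The genes spanned from 837 kb (Sugct) to 1998 kb (Macrod2), by the RefSeq gene table of GRCm38.p6, and very little of that is kept in the RNA. The Fhit transcript NM_010210.3 joins 9 exons into 981 bases from 1612 kb, so that 0.0609% of its span is exon, and its longest intron is 551.3 kb. In Wwox (NM_019573.3) 9 exons give 2244 bases and the longest intron is 639.4 kb. In Immp2l (NM_053122.4) 7 exons give 1147 bases around an intron of 517.8 kb. Cntnap5a (NM_001077425.1) has the most exon in its span, 1.21%, with 24 exons and 10945 bases. Dpyd (NM_170778.2) has the shortest longest intron of the 9 genes with a placed transcript, 97.2 kb, between 23 exons. Cntn5 had no placed transcript.

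Promoter windows, from 250 bases before to 50 bases after an annotated start, were given by RefSeq for 8 of the 10 genes, in 11 windows. Of these, 3 are shown because the results on transcripts turn on where RNA starts: the start of the longest Fhit transcripts, the start of a shorter Fhit transcript inside the gene, and the start that a short and a long Macrod2 transcript share. They are written 5′ to 3′ on the gene's strand (GRCm38.p6, RefSeq), with the dinucleotide CG in capitals.
Fhit, upstream start, chr14:11161986-11162285, minus strand: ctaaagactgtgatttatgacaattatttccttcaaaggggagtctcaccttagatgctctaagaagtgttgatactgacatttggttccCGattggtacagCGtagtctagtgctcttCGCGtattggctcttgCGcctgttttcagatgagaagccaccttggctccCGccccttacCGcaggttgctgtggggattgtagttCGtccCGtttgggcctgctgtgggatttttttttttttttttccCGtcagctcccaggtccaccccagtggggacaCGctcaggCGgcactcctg
Fhit, downstream start, chr14:10453409-10453708, minus strand: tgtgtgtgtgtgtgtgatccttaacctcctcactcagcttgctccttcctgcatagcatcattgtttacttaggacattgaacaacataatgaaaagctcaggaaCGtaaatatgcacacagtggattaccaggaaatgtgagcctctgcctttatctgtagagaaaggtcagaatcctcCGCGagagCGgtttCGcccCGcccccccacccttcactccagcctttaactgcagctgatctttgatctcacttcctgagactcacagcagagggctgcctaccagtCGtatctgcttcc
Macrod2, chr2:140395180-140395479, plus strand: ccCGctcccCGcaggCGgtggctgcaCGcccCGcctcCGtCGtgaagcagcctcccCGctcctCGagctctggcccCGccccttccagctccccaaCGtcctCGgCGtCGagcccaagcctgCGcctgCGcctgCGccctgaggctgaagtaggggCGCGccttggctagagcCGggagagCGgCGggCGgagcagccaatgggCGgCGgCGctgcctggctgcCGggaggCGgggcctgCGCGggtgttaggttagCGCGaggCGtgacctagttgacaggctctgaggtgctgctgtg
The upstream Fhit window holds 12 CG, the downstream one 7 and the Macrod2 window 33. The median over 32851 promoters of the same length was 7, and 94.6% held at least 1 CG. Of the 11 windows, 10 lay above that median, with counts from 7 to 43. The motif TATAAA, searched on both strands and sharing no letters with CG, was in 0 of the 11 windows and in 13.6% of all promoters. These are counts of letters and say nothing on which factors bind.

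In control cortex the level per length (mean FPKM ± SD, n = 3, length-scaled values of the deposited table) was highest for Sugct, at 78.0 ± 12.3, and Macrod2, at 40.2 ± 3.67. Fhit followed at 14.8 ± 1.44, Dpyd at 11.0 ± 1.07, Wwox at 8.50 ± 1.11 and Immp2l at 4.26 ± 1.40. The genes of neuronal adhesion and membrane transport were low: Cntnap5a at 1.20 ± 0.189, Ctnna2 at 0.973 ± 0.296, Nkain2 at 0.333 ± 0.0473 and Cntn5 at 0.280 ± 0.0265. The order of Cntnap5a and Ctnna2, and that of Nkain2 and Cntn5, is within about 1 SD.

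Library totals lay between 15029286 and 16690482 expected counts, and 13954 genes passed the filter on low counts, all 10 long genes among them. For Fhit, Immp2l, Cntnap5a, Ctnna2, Nkain2 and Cntn5 every YSJZD and cisplatin library held under 10 counts, so these 6 passed through their control libraries and had to differ from control. A count of 3 over a group, used as the floor for genes at 0, corresponds to 0.0609 CPM (expected counts scaled to library totals adjusted by TMM factors) in YSJZD, 0.0576 in cisplatin and 0.0704 in control. The cisplatin libraries differed among themselves in cell type markers. Replicate 3 had a summed endothelial level of 146 CPM against 297 and 280 CPM in replicates 1 and 2. Replicate 1 had a summed distal convoluted tubule level of 23.1 CPM against 92.8 and 101 CPM in replicates 2 and 3.

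After cisplatin all 10 genes stood at 0% to 8.18% of their control mean, with a median of 3.39%. Fhit, an enzyme that splits diadenosine triphosphate, had 4, 3 and 1 counts in the cisplatin libraries and 189, 183 and 162 in the control libraries. The means were 0.150 ± 0.0795 CPM after cisplatin and 12.6 ± 1.64 CPM in control (SD, n = 3), a log2 fold change of -6.29 ± 0.46 (edgeR, SE). Each control library lay more than an order of magnitude above every cisplatin library. Wwox, an oxidoreductase with WW domains, kept 23, 25 and 34 counts after cisplatin, against 323, 234 and 271 in control. Its log2 fold change of -3.61 ± 0.40 was the smallest fall of the 10.

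Among the metabolic and mitochondrial enzymes, Dpyd, which starts the breakdown of uracil and thymine, had 44, 45 and 96 counts in cisplatin libraries against 819, 733 and 663 in control libraries (log2 fold change -3.85 ± 0.50). Sugct, which transfers coenzyme A from succinyl-CoA to glutarate, had 129, 99 and 187 counts against 2269, 1854 and 1615 (-4.07 ± 0.45). Both were highest, among cisplatin libraries, in replicate 3. Macrod2, which removes single ADP-ribose groups from proteins, had 164, 261 and 169 counts after cisplatin and 2886, 2944 and 2582 in control (-4.12 ± 0.37). Immp2l, a catalytic subunit of the peptidase of the inner mitochondrial membrane, had 2, 4 and 3 counts after cisplatin and 91, 62 and 41 in control (-4.67 ± 0.56). No cisplatin library overlapped a control library for any of these 4 genes, but they were chosen for their fall in these same libraries.

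The genes better known from neurons gave the same picture at lower counts. Cntnap5a, of the neurexin superfamily of adhesion proteins, had 7, 7 and 3 counts after cisplatin and 171, 133 and 151 in control (-5.01 ± 0.43). Ctnna2, the neuronal alpha-catenin that ties cadherins to actin, had 0, 1 and 0 counts after cisplatin and 40, 71 and 63 in control, a ratio of 0.0047 (95% exact counting interval 0.000118 to 0.0265). Nkain2, a membrane protein that binds the sodium pump, had 0 counts in every cisplatin library and 17, 13 and 19 in control, at least 20.0-fold lower. Cntn5, an adhesion protein of the contactin family, had 0 counts in every cisplatin library and 25, 27 and 29 in control, at least 33.0-fold lower. Counting intervals cover counting error only.

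Across the tested genes 54.6% were called in cisplatin against control (edgeR, Benjamini-Hochberg adjusted p under 0.05), 28.6% higher and 26.0% lower, so a fall as such was common. All 10 long genes were called lower, as their choice fixes, with a median log2 fold change of -4.84 (-4.50 with the genes at 0 counts set to their bound) beside 0.04 over all genes tested. By span the choice left a gap: the shortest of them is Sugct, while Plcb1 (689 kb, log2 fold change -2.31) and Arhgap24 (698 kb, -1.98) lie just under 700 kb, and Ralyl (711 kb, 0 counts after cisplatin, at least 16.7-fold lower) and Kcnma1 (713 kb, -1.61) just over it. By size of fall, Wwox at -3.61 lies just inside and Tenm4, at -3.18, outside, whereas Alk and Ralyl fell further and were not picked.

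**Figure D1:**
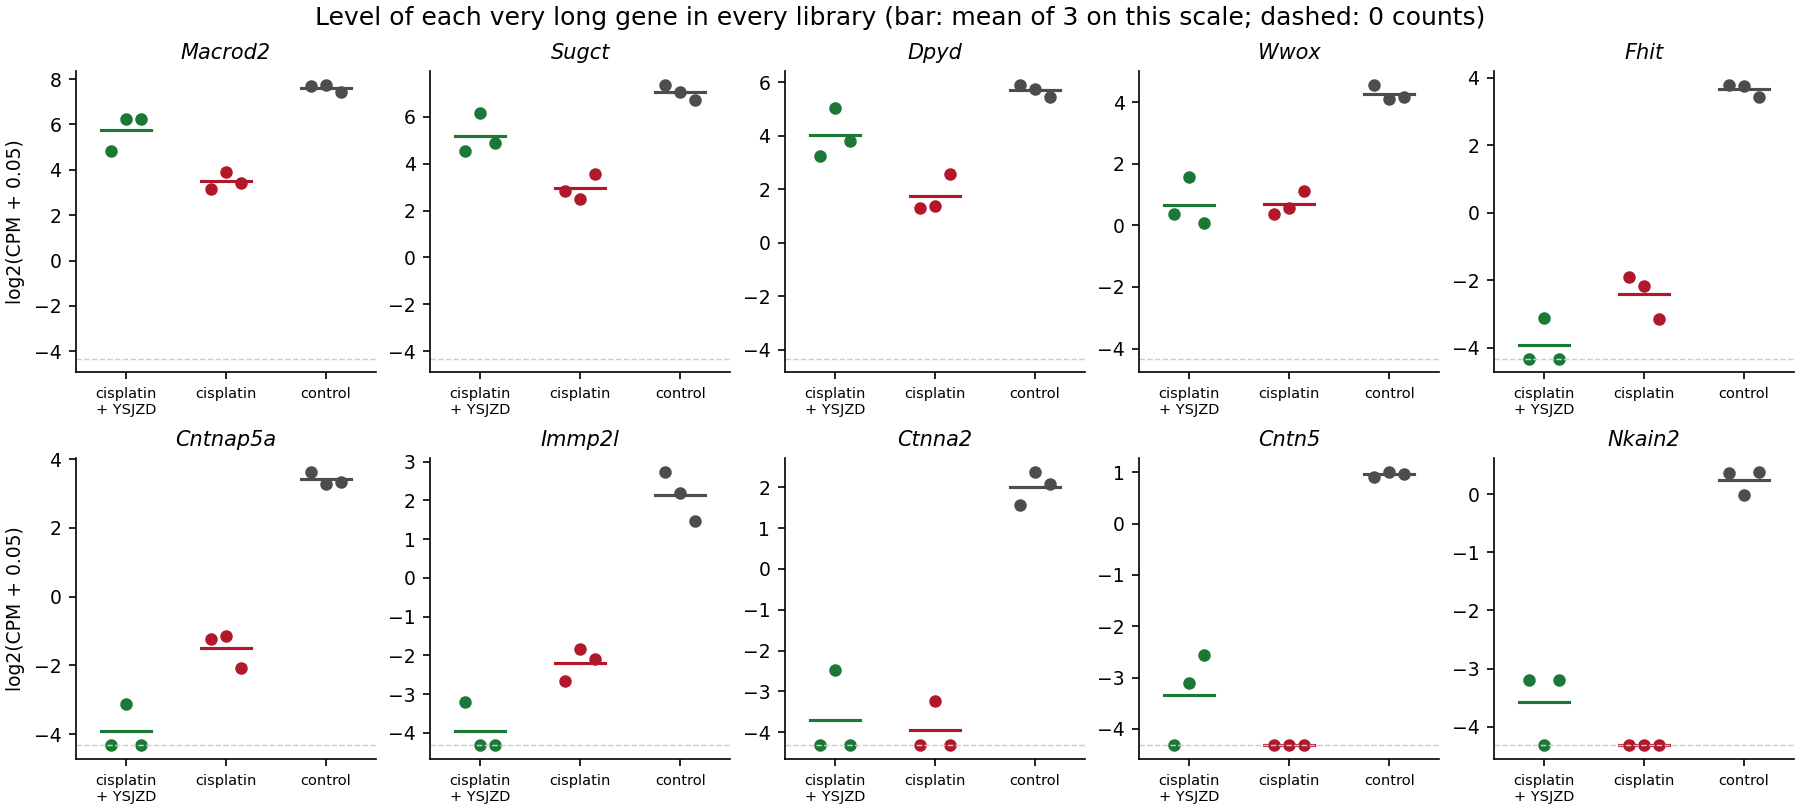
Level of the 10 genes in each library, as log2(CPM + 0.05) on the vertical axes, with YSJZD, cisplatin and control libraries from left to right in each panel, points for libraries and bars for the mean of 3 on this scale. Macrod2, Sugct and Dpyd lie between cisplatin and control in YSJZD libraries, Wwox lies at the cisplatin level, and the other 6 genes are at or near 0 counts (dashed line) in YSJZD libraries.

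With the decoction the 10 genes split. Macrod2, Sugct and Dpyd rose against cisplatin with water, by 2.36 to 2.38 on the log2 scale, while Wwox was at the same low level. Cntnap5a was called lower still, on only 1 count in YSJZD against 17 in cisplatin. Against a background of 35.4% of genes called in YSJZD against cisplatin, 17.4% higher and 18.0% lower, 3 of the 10 were called higher and 1 lower. The cisplatin libraries in this comparison also served to choose the genes, so it is not independent of the choice.

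Macrod2 had 490, 1135 and 1269 counts in YSJZD libraries, against 164, 261 and 169 in cisplatin libraries. Its means were 59.4 ± 26.7 CPM in YSJZD and 11.4 ± 3.11 CPM in cisplatin, a log2 fold change of 2.38 ± 0.35 (edgeR adjusted p = 0.000833). Sugct had 400, 1089 and 504 counts in YSJZD libraries and 129, 99 and 187 in cisplatin libraries. Its means of 41.6 ± 26.1 and 8.08 ± 3.12 CPM gave a log2 fold change of 2.36 ± 0.42 (adjusted p = 0.0024). Dpyd had 161, 496 and 236 counts in YSJZD libraries and 44, 45 and 96 in cisplatin libraries. The means were 18.6 ± 12.2 and 3.64 ± 2.01 CPM, a log2 fold change of 2.36 ± 0.48 (adjusted p = 0.00437). For Sugct and Dpyd YSJZD replicate 2 held more than the other 2 YSJZD libraries together in CPM, and without it the log2 fold changes fell to the lowest values tried, 1.73 and 1.70, still called.

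Wwox had 21, 45 and 17 counts in YSJZD libraries and 23, 25 and 34 in cisplatin libraries, overlapping groups with a log2 fold change of 0.11 ± 0.41 (adjusted p = 0.855). The sign of this small difference turned without YSJZD replicate 2 (-0.50) and without cisplatin replicate 1 (-0.04). Cntnap5a had 0, 1 and 0 counts in YSJZD libraries and 7, 7 and 3 in cisplatin libraries, and it was the gene called lower (adjusted p = 0.00645). On 1 count against 17 the ratio was 0.0622, with an exact counting interval of 0.00149 to 0.397. Cntnap5a was tested only because of its control libraries, and in the fit of the 6 libraries compared it was below the filter. Fhit had 0, 1 and 0 counts in YSJZD libraries and 4, 3 and 1 in cisplatin libraries, a ratio of 0.132 (0.00298 to 0.986) with an adjusted p of 0.0505. Immp2l had 1, 0 and 0 counts against 2, 4 and 3, a ratio of 0.118 (0.00268 to 0.848) with an adjusted p of 0.0569. Neither passed the threshold. For Ctnna2 (0, 2 and 0 counts in YSJZD, 0, 1 and 0 in cisplatin), Nkain2 (1, 0 and 1, against none) and Cntn5 (0, 1 and 2, against none) both groups were at or under the floor, and no fold is given.

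Summed over the group, Macrod2, Sugct and Dpyd held 5780 counts in YSJZD, 1194 in cisplatin and 16365 in control, and the other 7 genes 93, 117 and 2315. This division of the genes was made after their values were seen, and the difference in response between genes was not tested. The 3 genes include the longest of the 10 (Macrod2, 1998 kb) and the shortest pair (Dpyd at 871 kb and Sugct at 837 kb). Their promoter windows held 33 CG in Macrod2, 11 in Dpyd and 25 in Sugct. Their control levels were the highest of the 10 in CPM, at 198 ± 23.9 for Macrod2, 136 ± 29.1 for Sugct and 52.3 ± 7.91 for Dpyd, ahead of Wwox at 19.5 ± 3.50. Whether span, promoter CG or control level had a part in the division was not tested.

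Against control, the YSJZD group still fell short for every one of the 10 genes. All 10 were called lower, beside 19.3% of genes called (9.93% higher and 9.37% lower), but 6 of them passed the filter only through control, and the control libraries served to choose them all. The group mean stood at 30.6% of control for Sugct and 35.7% for Dpyd, and at 59.4 CPM against 198 CPM for Macrod2. Macrod2 had 490 to 1269 counts in YSJZD libraries and 2582 to 2944 in control libraries (log2 fold change -1.74 ± 0.33, adjusted p = 0.00575). Sugct had 400 to 1089 counts against 1615 to 2269 (-1.71 ± 0.40, adjusted p = 0.0149), and Dpyd 161 to 496 against 663 to 819 (-1.49 ± 0.44, adjusted p = 0.0394). No YSJZD library of these 3 genes reached the lowest control library, but the control libraries also served to choose the genes.

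The call of Dpyd against control was lost without YSJZD replicate 1 (adjusted p = 0.11) or 3 (0.125) and without control replicate 1 (0.117), 2 (0.0957) or 3 (0.066). That of Sugct was lost without YSJZD replicate 1 (0.05) or 3 (0.0588) and without control replicate 1 (0.0598). Wwox was at 8.87% of control, with 17 to 45 counts in YSJZD libraries and 234 to 323 in control libraries (-3.50 ± 0.40, adjusted p = 0.000396). The control libraries also served to choose these genes, so these p-values against control are not independent of the choice.

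For the remaining 6 genes the YSJZD group held 1 to 3 counts in all. The ratio to control was 0.00162 for Fhit (95% exact counting interval 4.09e-05 to 0.00906), 0.0019 for Cntnap5a (4.8e-05 to 0.0106) and 0.00446 for Immp2l (0.000112 to 0.0251). It was 0.00994 for Ctnna2 (0.00119 to 0.0365), 0.0353 for Nkain2 (0.00416 to 0.135) and 0.032 for Cntn5 (0.00647 to 0.097). Over the 10 genes the YSJZD group stood at 0.174% (Fhit) to 35.7% (Dpyd) of control, with a median of 3.33%.

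**Figure D2:**
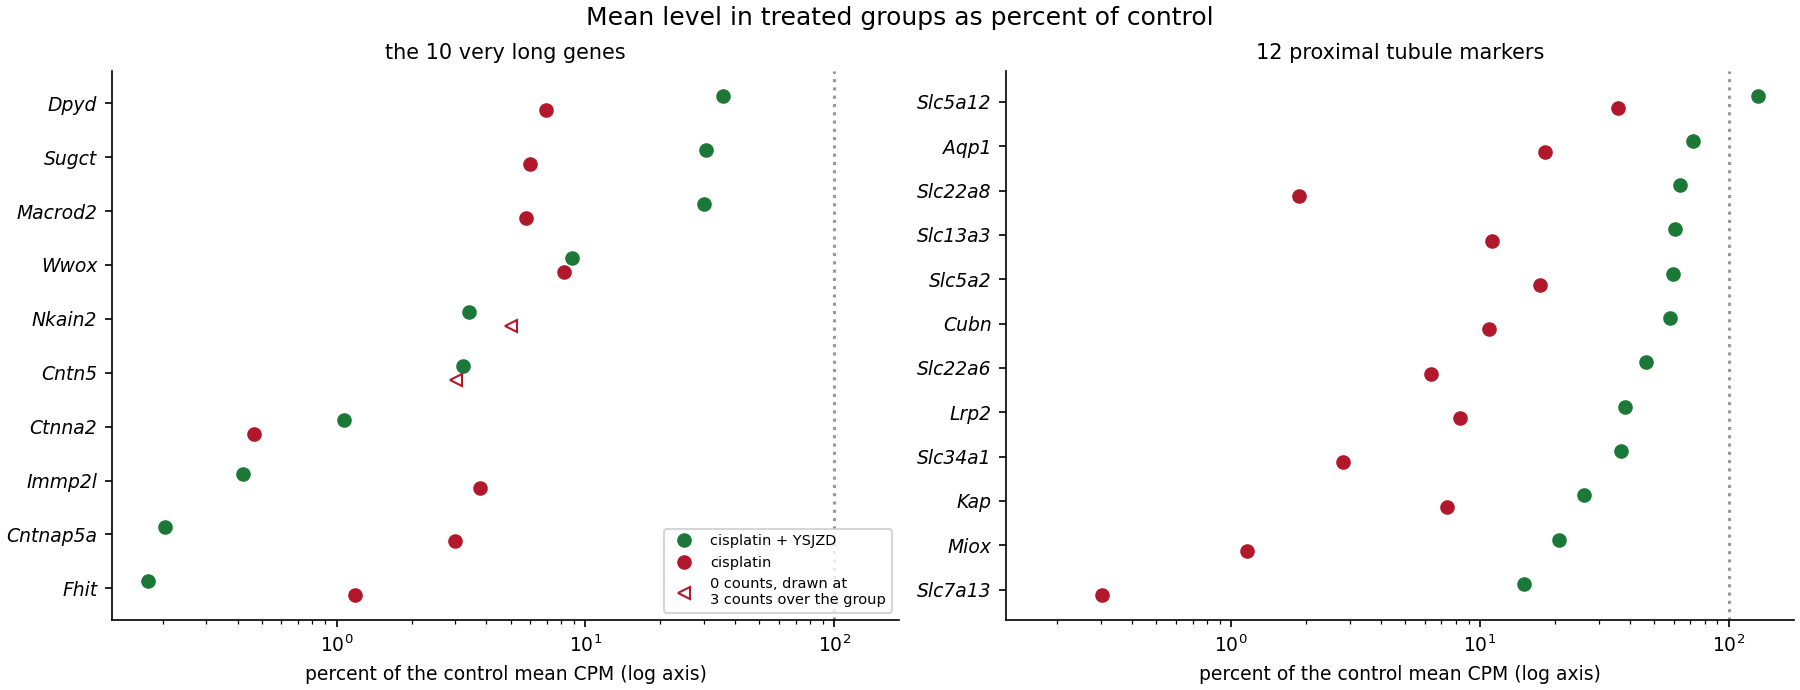
Mean CPM in YSJZD and cisplatin libraries as percent of the control mean (log axis; dotted line at 100%), for the 10 long genes on the left and 12 proximal tubule markers on the right. Dpyd, Sugct and Macrod2 stand clear of the others in YSJZD, with Dpyd highest at 35.7%, and under 10% after cisplatin, and the other 7 long genes stay under 10%.

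Markers of the proximal tubule, the segment that takes up most cisplatin, were low in the same libraries. The 12 markers fixed for this segment, all measured, summed to 16100, 33500 and 19100 CPM in YSJZD libraries, 6060, 3580 and 6070 in cisplatin libraries and 79100, 81300 and 63300 in control libraries, which is 30.7% of control in YSJZD and 7.02% after cisplatin. Much of the sum was 1 gene, Kap, at 26.3% of control in YSJZD and 7.36% after cisplatin, and the median over the 12 markers was 52.1% in YSJZD and 7.83% after cisplatin. After cisplatin 11 of the 12 fell, and in YSJZD against cisplatin 12 of 12 rose, among them the phosphate transporter Slc34a1 (log2 fold change 3.71 ± 0.47) and the endocytic receptor Lrp2 (2.21 ± 0.28). The 10 long genes summed to 62.7, 182 and 120 CPM in YSJZD libraries, 20.2, 25.4 and 30.6 in cisplatin libraries and 497, 455 and 370 in control libraries. YSJZD replicate 2 was the highest of its group in both sums. Macrod2, Sugct and Dpyd held most counts of the 10 long genes, with the other 7 at 2.14%, 1.81% and 0.986% in YSJZD libraries. The median over the 10 long genes was 3.33% of control in YSJZD and 3.39% after cisplatin. In bulk RNA, fewer cells of a type and less RNA per cell cannot be told apart, and the part of tubule loss in the values of the long genes was not tested.

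Markers of neurons and Schwann cells, whose genes overlap in kind with Cntnap5a, Ctnna2 and Cntn5, stayed low throughout. Their 10 genes summed to 3.50 to 6.17 CPM in YSJZD libraries, 3.41 to 11.0 after cisplatin and 4.80 to 7.28 in control, with 2 of them at 0 in YSJZD and 1 at 0 in control. Macrophage markers summed to 69.1 to 104 CPM in YSJZD, 242 to 710 in cisplatin and 81.8 to 119 in control, and 5 of 6 fell in YSJZD against cisplatin. The 6 markers of fibroblasts and pericytes summed to 195 to 225 CPM, 220 to 603 CPM and 123 to 195 CPM in the same order of groups. Of the distal segments, 5 of 6 thick ascending limb markers and 4 of 4 distal convoluted tubule markers fell after cisplatin, and 5 and 2 of them rose in YSJZD against cisplatin. The part of these cell types in the values of the long genes was not tested either.

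Transcript values show to which annotated transcripts the remaining RNA was assigned, with the caution that RSEM divides reads between overlapping transcripts and no test was run. Many of these transcripts have no placed span, so the position of most remaining Macrod2 RNA along the gene is not known. Macrod2 has a short transcript, NM_028387.1, of 4 exons over 27.5 kb, which starts at the same base as the long NM_001013802.3 (1989 kb) and ends 1960 kb before its end. It had 1.52, 3.18 and 0.846 CPM in YSJZD libraries, 1.23, 1.49 and 0.793 in cisplatin libraries and 1.70, 1.18 and 2.48 in control libraries. The 3 groups overlapped, with means of 1.85 ± 1.20, 1.17 ± 0.353 and 1.79 ± 0.656 CPM. The other 10 Macrod2 transcripts together had 27.1, 71.3 and 74.4 CPM in YSJZD libraries, 7.67, 13.4 and 9.69 in cisplatin libraries and 208, 213 and 168 in control libraries. The promoter window printed above belongs to the short transcript and to NM_001013802.3, which averaged 0.125 CPM in YSJZD, 0.0329 in cisplatin and 1.20 in control. The other 9 are predicted transcripts without a placed span or start here, and whether reads of unspliced RNA were assigned to the short one was not tested.

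**Figure D3:**
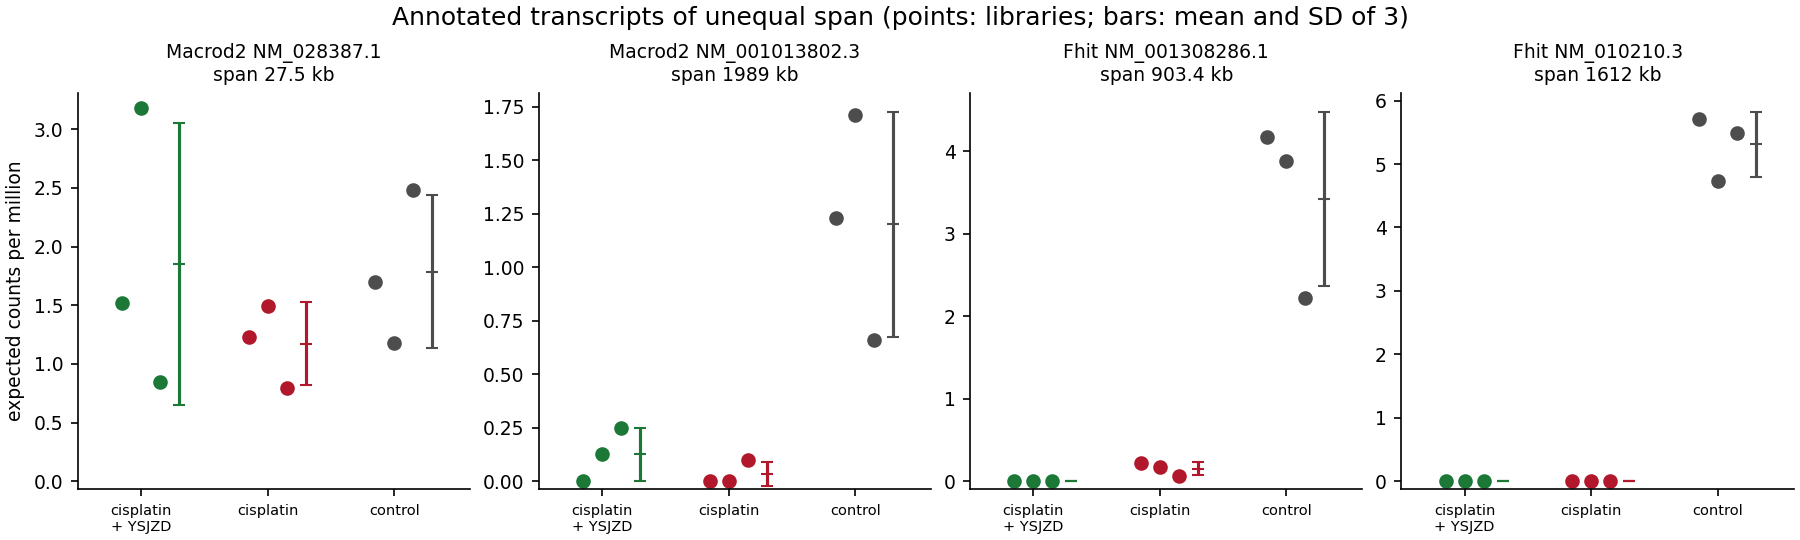
CPM of a short and a long transcript of Macrod2 and of 2 Fhit transcripts of unequal span, with YSJZD, cisplatin and control libraries from left to right, points for libraries and bars for mean and SD of 3. The short Macrod2 transcript overlaps between groups, while both Fhit transcripts lie far below control in the treated groups.

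The 7 Fhit transcripts in the table were all near 0 in the treated groups. The transcript from the upstream start, NM_010210.3, had 0 counts in every YSJZD and cisplatin library and 226.5 expected counts in control. The one from the downstream start, NM_001308286.1, which spans 903.4 kb, had 0 counts in YSJZD, all 8 Fhit counts of the cisplatin group and 144.3 in control. In Wwox the full-length NM_019573.3 carried 38.7% of the gene's counts in YSJZD, 68.0% in cisplatin and 94.5% in control, and the rest was assigned to predicted transcripts without a placed span. In Sugct and Dpyd a transcript of the full span carried nearly all counts in each group: NM_138654.3 had 99.4% of Sugct in YSJZD, all of it in cisplatin and 99.5% in control, and NM_170778.2 had 97.5%, 94.5% and 99.1% of Dpyd.

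Among other genes of like span the share called lower after cisplatin was larger than among short genes. Their median fall was smaller than that of the 10, which were chosen for their fall in these same libraries. Alk and Ralyl, which were not picked, fell further than Wwox. Of the 96 others of at least 700 kb, 47 were tested, and in cisplatin against control 20 were called lower (42.6%) and 6 higher, with a median log2 fold change of -0.57. The share called lower was 24.5% of genes under 10 kb, 25.3% at 10 to 30 kb, 26.1% at 30 to 100 kb, 28.2% at 100 to 300 kb and 40.8% at 300 to 700 kb (the 10 genes left out). Scaled by library totals only, these shares were 18.1%, 18.9%, 18.5%, 19.8% and 31.3%, and 36.2% (17 lower and 10 higher) at 700 kb and over. In YSJZD against control the shares were 6.87%, 8.92%, 10.3%, 11.3% and 18.7%, and 21.3% (10 of 47) at 700 kb and over. With a library left out they ranged over 3.70% to 5.65%, 4.94% to 6.80%, 6.16% to 7.93%, 7.06% to 9.61%, 12.4% to 17.0% and 14.6% to 18.4% from the shortest class to the longest. In at least 1 class the share dropped by over 1.5 times without YSJZD replicate 1 or 3, or without any of the control libraries. In YSJZD against cisplatin 8 of the 47 were higher (17.0%) and 2 lower (4.26%), with a median of 0.13, beside 17.4% and 18.0% of all genes tested. Only 4 were higher without YSJZD replicate 2, without YSJZD replicate 3 or without cisplatin replicate 1, and the median was -0.01 without YSJZD replicate 2. Of the 22 with at least 5 CPM in 3 libraries, 8 were called lower after cisplatin, with a median of -0.13. Span classes were compared as a description, and long genes differ from short ones in exon content and level as well.

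**Figure D4:**
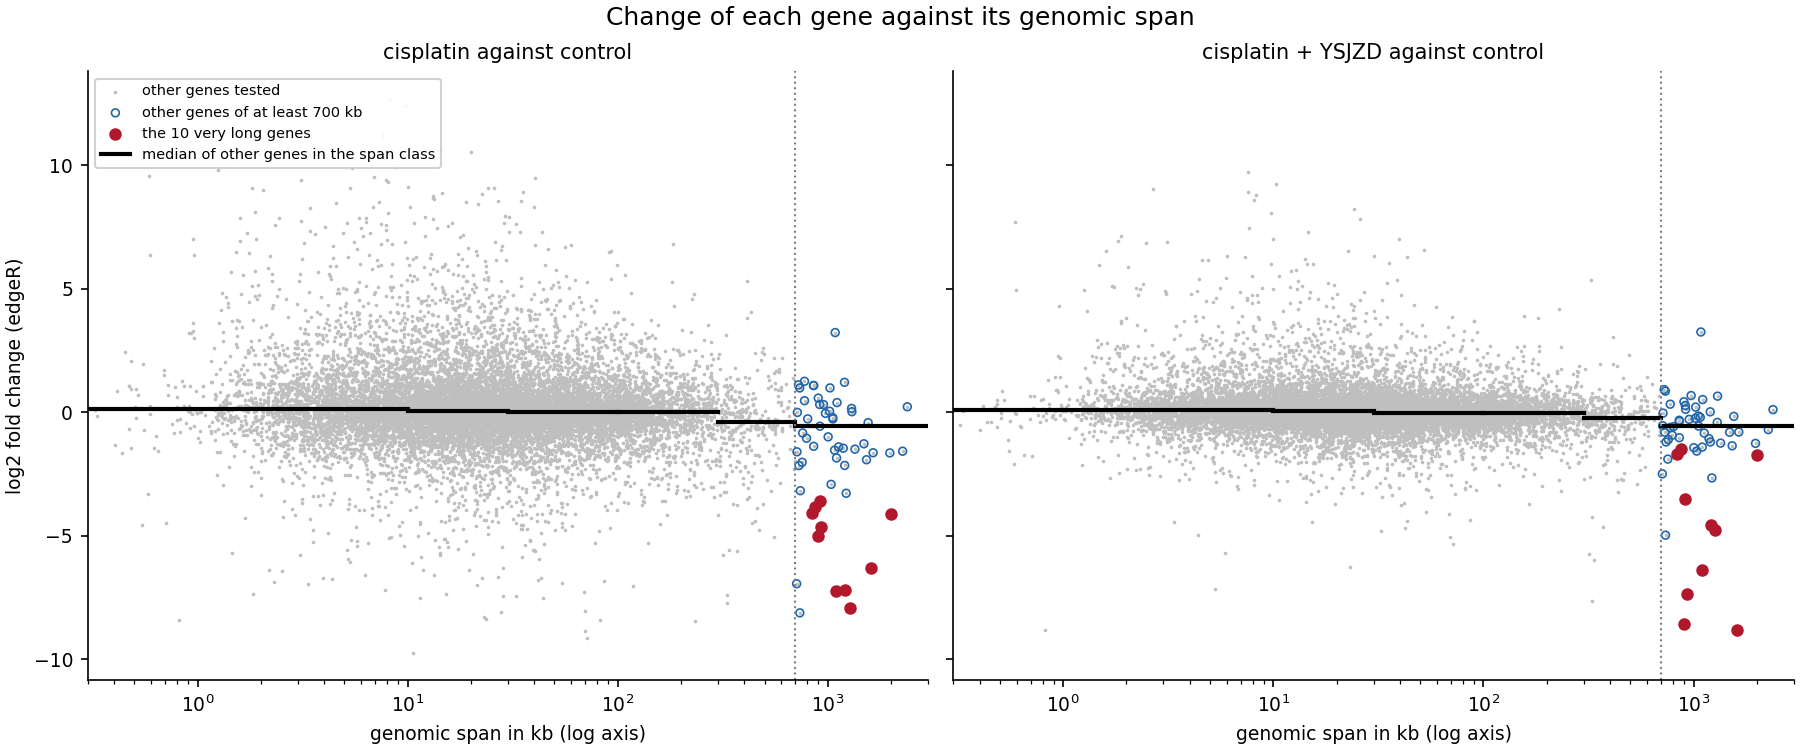
Log2 fold change of each tested gene (vertical axis, edgeR) against its genomic span in kb (log axis), for cisplatin against control and YSJZD against control, with the 10 genes in red, other genes of at least 700 kb as open circles and black lines at the median of each span class. The medians lie near 0 up to 300 kb and fall to -0.57 in both panels at 700 kb and over; fitted values of genes with 0 to 3 counts in a group depend on the prior count.

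**Figure D5:**
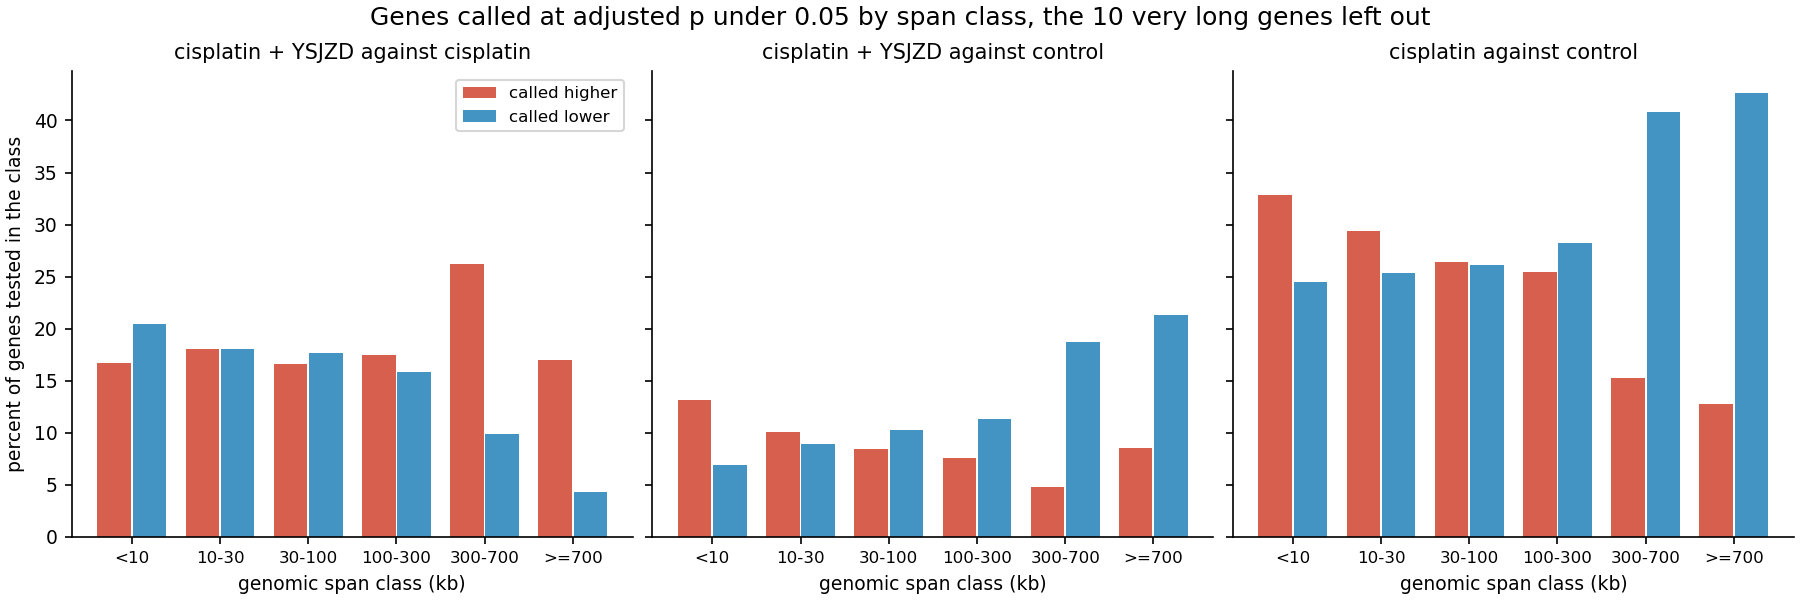
Percent of tested genes called higher (red) and lower (blue) at an adjusted p under 0.05 by span class in kb, with the 10 genes left out. In cisplatin against control the share called lower runs from 24.5% under 10 kb to 42.6% at 700 kb and over, and in YSJZD against control from 6.87% to 21.3%.

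Few long genes were left as low as the 10. Among genes with at least 1 CPM in control, the cisplatin mean was under 10% of control in 264 of 12778 genes (2.07%). Of those of at least 700 kb it was so in 11 of 53, namely Alk and the 10, which were chosen for this fall. With the 10 left out it was so in 1 of 43 (2.33%). In YSJZD the mean was under 10% of control in 40 of 12778 (0.313%) and in 8 of 53, again with Alk beside 7 of the 10. With the 10 left out this was again 1 of 43 (2.33%). Alk, a receptor tyrosine kinase of 736 kb, had 0 counts after cisplatin, at least 37.9-fold lower than control. Also called lower were Tenm4 (740 kb, -3.18 ± 0.47), Lrmda (1037 kb, -2.93 ± 0.38) and Malrd1 (729 kb, -2.17 ± 0.36). In YSJZD against cisplatin Tenm4 rose by 1.97 ± 0.47, Lrmda by 1.35 ± 0.37 and Malrd1 by 1.35 ± 0.36.

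Great length did not go with a fall in every gene. Nrg1, a ligand of the ErbB receptors that spans 1084 kb, had 98.8 CPM in YSJZD, 97.2 in cisplatin and 10.4 in control (cisplatin against control 3.22 ± 0.27, adjusted p = 9.94e-06). Nav3 (774 kb, 1.25 ± 0.48), the exocyst subunit Exoc4 (725 kb, 1.10 ± 0.18), the RNA-binding protein Celf2 (857 kb, 1.08 ± 0.34) and the nuclear receptor Rora (735 kb, 0.98 ± 0.22) were also called higher. In a list of 49 further genes tied to fragile sites or of like length, 29 were tested. After cisplatin, beside 26.0% of all genes tested lower and 28.6% higher, 10 of the 29 fell (34.5%) and 4 rose (13.8%), with a median of -0.29. Those with the smallest p were Nrg1, Fto (-1.08 ± 0.16), Exoc4 and the receptor phosphatase Ptprd (2271 kb, -1.58 ± 0.28). In YSJZD against cisplatin, beside 17.4% of all genes tested higher and 18.0% lower, 3 of the 29 rose (10.3%) and 0 fell. The 3 were the phosphodiesterase Pde4d (0.63 ± 0.14), the receptor Erbb4 (1.33 ± 0.37) and Ptprd (0.87 ± 0.27). At an unadjusted p under 0.05, 4 were higher and 1 lower, DESeq2 called 3 higher and 1 lower, and limma-voom 2 and 0. Without YSJZD replicate 2, YSJZD replicate 3 or cisplatin replicate 1, edgeR called 1 higher. Against control 5 of the 29 were higher and 5 lower in YSJZD (17.2% each), beside 9.93% and 9.37% of all genes tested. With a library left out 3 to 5 were higher and 3 or 4 lower. Pard3b, a cell polarity protein, was at -1.44 ± 0.24 in YSJZD against control.

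Other genes of the same families or pathways gave a mixed result. Of 37 listed 24 were tested. After cisplatin 10 fell (41.7%) and 3 rose (12.5%), beside 26.0% and 28.6% of all genes tested. In YSJZD against cisplatin 7 rose (29.2%) and 2 fell (8.33%), beside 17.4% and 18.0%. In YSJZD against control 1 was higher (4.17%) and 4 lower (16.7%), beside 9.93% and 9.37%. The 4 became 2 without YSJZD replicate 1 or 3 or without any of the control libraries. Upb1, which acts in the same uracil breakdown as Dpyd, had 113 CPM in YSJZD, 17.0 in cisplatin and 203 in control. It fell by 3.57 ± 0.28 on the log2 scale after cisplatin and rose by 2.73 ± 0.27 in YSJZD against cisplatin, over a span of 34.8 kb. Gcdh, which breaks down glutaryl-CoA, fell (-2.46 ± 0.20) and rose (1.84 ± 0.20) likewise over 7.54 kb, and so did Dhtkd1 (-2.61 ± 0.24 and 2.01 ± 0.24). Macrod1, the relative of Macrod2, fell by 2.39 ± 0.16 after cisplatin and was 1.08 ± 0.16 higher in YSJZD than in cisplatin, at 15.4, 7.28 and 38.3 CPM in YSJZD, cisplatin and control. Upp2, a uridine phosphorylase of 230 kb, had 3.73, 4.24 and 24.8 CPM in these groups and gave -0.18 ± 0.46 in YSJZD against cisplatin (adjusted p = 0.786). The other uridine phosphorylase, Upp1, went the opposite way, with 7.32, 17.6 and 6.56 CPM, a rise of 1.43 ± 0.25 after cisplatin and -1.27 ± 0.25 in YSJZD against cisplatin. Of the relatives of Fhit, Hint1 had 172, 178 and 177 CPM, and Hint2 had 94.6, 35.9 and 101 CPM, with -1.49 ± 0.23 after cisplatin (adjusted p = 0.00042) and 1.40 ± 0.23 in YSJZD against cisplatin (adjusted p = 0.00165).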

How the data were processed

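Total RNA of kidney cortex was sequenced on a DNBSEQ instrument, per the labels' protocols. The authors deposited expected counts per RefSeq transcript, made with RSEM 1.3.1 per the submitters' processing notes, which also name DESeq2 1.4.5 and GRCh38, a human build. Neither an aligner nor a mouse build is named there. Length-scaled values that the authors deposited beside the counts were taken to be FPKM, because their values behave so and the file header names no unit.

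Expected counts were summed per Entrez gene and rounded. All 9 libraries were fitted in edgeR 4.0.16 (R 4.3.3) with filterByExpr, TMM factors and a quasi-likelihood test per pair of groups, with Benjamini-Hochberg adjustment over 13954 tested genes (4009 removed). CPM values use TMM-scaled totals and are given with their SD (3 libraries a group). All tests are two-sided. The fit was tested on simulated data. Alternatives were DESeq2 size factors, library totals only, other filters, DESeq2 1.42.0, limma-voom (limma 3.58.1), a replicate block, other span limits, a fit of the 6 libraries compared and leaving out each library.

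For 17847 genes a symbol and span were found in RefSeq (GRCm38.p6). Of the table's transcripts, 43.8% matched RefSeq with their version and 82.8% without it. Spans of transcripts and exons were read from GENCODE annotation of GRCm38. The 10 genes and all gene lists were chosen with earlier results of these data known. Genes named beside them are nested and neighbouring genes, up to 4 per list and comparison by smallest p, the 5 lowest and 5 highest called genes of at least 700 kb with at least 1 CPM in a group, and genes nearest the span limit. One gene that this rule names is not reported here. Upp1, Hint1, Hint2 and the markers Slc34a1, Lrp2 and Kap were chosen after their values were seen.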

Additional observations from a re-analysis of the deposited data

How the results depend on the processing

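Of 776 alternative values, 711 kept their direction and side of the threshold (or stayed within 1.5 times for counts). The 3 genes called higher in YSJZD against cisplatin stayed 3, or 4 without YSJZD replicate 1, where Cntn5 passed. The count called lower was 2 with DESeq2 size factors (Fhit added, adjusted p = 0.0496) and with library totals only (Immp2l, adjusted p = 0.0487), 1 to 2 with a library left out, and 0 in the fit of the 6 libraries compared, where Cntnap5a was below the filter. With at least 5 CPM in 3 libraries 6 of the 10 genes were tested, and 6 were lower in cisplatin against control and 6 in YSJZD against control. The choice of the genes fixes the first of these counts, and it used the control libraries of the second. Genes called in YSJZD against control numbered 2694 and from 1607 (without control replicate 1) to 2241 with a library left out, 1699 without control replicate 2. In YSJZD against cisplatin the sign turned for Wwox with limma-voom (-0.02), without cisplatin replicate 1 (-0.04) and without YSJZD replicate 2 (-0.50), for Ctnna2 without YSJZD replicate 2 (-1.79), and for the median of other genes of at least 700 kb with at least 5 CPM in 3 libraries (-0.10) and without YSJZD replicate 2 (-0.01). With a library left out, these 3 values ranged from -0.50 to 0.39 for Wwox, -1.79 to 2.63 for Ctnna2 and -0.01 to 0.30 for the median. The cause was not tested. Library totals alone moved the median log2 fold change of all genes to 0.27 in cisplatin against control and 0.20 in YSJZD against control, and other genes of at least 700 kb then numbered 10 higher and 17 lower after cisplatin.

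Groups share replicate numbers, but libraries of the same number did not deviate together (r from -0.197 to 0.092, and from -0.196 to 0.241 for unlike numbers). The numbers were therefore used to name libraries only. With 3 libraries a group, this check cannot exclude a shared batch. With the number as a replicate block, edgeR called 7348 genes (cisplatin against control), 4590 (YSJZD against cisplatin) and 2367 (YSJZD against control), and the 10 long genes gave 10 lower, 3 higher with 1 lower, and 10 lower. The choice of the 10 genes fixes the 10 lower in cisplatin against control. The control libraries of that choice also enter YSJZD against control, where 6 of the 10 passed the filter only through them. Depth limits Fhit, Immp2l, Cntnap5a, Ctnna2, Nkain2 and Cntn5, whose treated libraries held under 10 counts each.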

Other observations

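Genes next to the 10 long genes went in both directions. Of 20 nearest neighbours by RefSeq position, 15 were tested. After cisplatin 4 of the 15 were higher and 7 lower than control, beside 28.6% and 26.0% of all genes tested. The median log2 fold change of the 15 was -0.57, with a range from -3.03 to 1.85 (edgeR). The lowest was Cfap20dc, beside Fhit and 235 kb long, at 0.231 CPM in YSJZD, 0.260 in cisplatin and 2.13 in control (-3.03 ± 0.72 in cisplatin against control, adjusted p = 0.00484). On its other side the receptor phosphatase Ptprg gave -0.57 ± 0.27 (adjusted p = 0.0953). Dsel, beside Cntnap5a, rose by 1.85 ± 0.27 after cisplatin, and Rnf217, beside Nkain2, by 1.28 ± 0.20. Dnajb9, beside Immp2l, gave -0.03 ± 0.17. In YSJZD against cisplatin 2 of the 15 were higher and 4 lower, beside 17.4% and 18.0% of all genes tested. In YSJZD against control 1 was higher and 3 lower, beside 9.93% and 9.37%.

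Of 3 genes that lie wholly inside one of the long genes, only Flrt3, an adhesion protein in an intron of Macrod2 with a span of 13.3 kb, was tested. It had 0.716 CPM in YSJZD, 1.09 in cisplatin and 2.41 in control. The log2 fold change was -1.13 ± 0.48 in cisplatin against control (adjusted p = 0.0709) and -1.74 ± 0.50 in YSJZD against control (adjusted p = 0.0359).

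Genes of RNA polymerase elongation and of repair coupled to transcription were called in both directions. All 36 listed were tested, and after cisplatin 7 were higher (19.4%) and 4 lower (11.1%) than control (median 0.18). Over all genes tested these shares were larger, at 28.6% and 26.0%. Scaled by library totals only, 15 were higher and 1 lower (median 0.41), against a median of 0.27 over all genes on that scale. Ell, an elongation factor, had 29.8 CPM in YSJZD, 57.7 in cisplatin and 15.9 in control, and rose by 1.86 ± 0.17 after cisplatin (adjusted p = 1.35e-05). Ell2 rose by 0.86 ± 0.19 and Supt4a by 0.63 ± 0.14, while Hexim1, which holds the elongation kinase inactive, fell by 1.34 ± 0.18. In YSJZD against cisplatin 2 were higher, Hexim1 among them (0.89 ± 0.18), and 4 lower, among them Ell (-0.95 ± 0.16), Supt4a (-0.57 ± 0.14) and Top2a (-2.46 ± 0.58). That is 5.56% higher and 11.1% lower, beside 17.4% and 18.0% of all genes tested. In YSJZD against control edgeR called 1 of the 36 higher, Ell, and 0 lower, beside 9.93% and 9.37% of all genes tested. At an unadjusted p under 0.05 there were 3 higher and 2 lower, DESeq2 called 1 and 1, and limma-voom 1 and 0. Leaving out a library gave 4 to 7 higher and 2 or 3 lower in cisplatin against control.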
